A study of Mus musculus with 8 samples.

Results

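The genes described here, 10 in number, belong to the signalling pathway of interleukin 3 and were measured in mouse leukaemia cells. They are the transcription factors Stat3, Stat5a, Stat5b and Stat6, the inhibitors Cish, Socs1, Socs2 and Socs3, and the kinases Pim1 and Pim2. The members were taken by gene symbol, and all 10 were found among the 23361 genes of the deposited table. Each reached 1 FPKM (fragments per kilobase of transcript, a level also scaled to library size) in at least 1 group, as did 11158 genes in all.

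The cells were established acute myeloid leukaemia lines of strain 129S6, derived from mouse bone marrow and transformed with the fusion oncogene MLL-AF9. One line was Cdc73fl/fl CreERT2, here called floxed, and the other was Cdc73 +/+ CreERT2, here called wild type. Both carried the recombinase that 4-hydroxytamoxifen (4OHT) activates, both grew with 10 ng/mL interleukin 3, and both received 7.5 nM 4OHT for 24 or 48 h, which gives 4 groups of 2 biological duplicates. The comparison asks what excision of Cdc73, a subunit of the PAF1 elongation complex, changes in these cells. The lines are separate and no library without 4OHT was used here, so any difference that they had beforehand is included in each value. The table holds 1 combined value per gene and group, so no SD, standard error or spread between duplicates can be given. The duplicates come from the same lines, and whether a line is 1 clone is not stated. A call is the authors' q-value under 0.05 in that table. Where values come in pairs, wild type is given before floxed.

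Interleukin 3 binds a receptor made of a specific alpha chain and a shared beta chain. The receptor brings JAK kinases together, which phosphorylate STAT5 proteins, and these dimers enter the nucleus and bind DNA at palindromic sites. Cish, the SOCS genes and the PIM kinase genes are classic direct targets, and CIS and SOCS proteins act back on the receptor and the JAK kinases as feedback inhibitors. In myeloid leukaemia this pathway is known for supporting survival and growth. The cells were grown with interleukin 3, so target levels are read here in its presence. How strong the stimulus was at each time was not measured.

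The binding sequence of STAT5 dimers was looked for in the RefSeq promoter windows of the members (build GRCm38.p6, the assembly of mm10, 250 bases before to 50 after each start). Of the 10 genes, 9 had a window, Socs2 being the one without, and some had more than 1, for 12 windows. The letters searched were TTCNNNGAA, which read the same on both strands, and the STAT6 form with a longer spacer, TTCNNNNGAA, matches of which can overlap those of the first. Cish held 2 matches of the first form and Socs3 held 1, and no window held the second. Among all 32851 windows, 8.30% held at least 1 match of the first form, 0.457% held 2 or more, and 6.95% held the second form. The stretches are shown because Cish and Socs3 hold the matches and were both called higher in floxed cells at 48 h. Socs1, Pim1, Pim2, Stat3 and Stat5b were also called higher then, and their windows held no match. Whether matches go with the calls was not tested. Capitals mark the matches. The Cish stretch is chr9:107296579-107296678 on the plus strand and the Socs3 stretch chr11:117969457-117969556 on the minus strand, both 5′ to 3′.
Cish: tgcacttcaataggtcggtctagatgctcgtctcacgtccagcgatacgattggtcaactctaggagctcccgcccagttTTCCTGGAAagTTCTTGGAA
Socs3: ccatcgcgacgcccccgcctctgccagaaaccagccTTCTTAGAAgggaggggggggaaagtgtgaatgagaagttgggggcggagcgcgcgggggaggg
The matches in Cish begin at base 1 and base 12 of the RefSeq transcript. In the deposited table Cish starts further downstream, so there both matches lie before the gene, the nearer one ending 11 bases before its first base. The match in Socs3 begins 154 bases upstream of the RefSeq start. By the GENCODE M21 positions given below, the matches of both Cish and Socs3 lie inside the gene, so their placement depends on the annotation. A match is a description of letters and no binding was measured.

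At 24 h, 4 of the 10 genes were called higher in floxed cells (Cish, Socs1, Pim1 and Pim2), 1 was called lower (Socs2), and the other 5 had no call. The background was 27.6% of 10987 tested genes at that time, 13.4% in the higher and 14.2% in the lower direction. At 48 h, 7 were called higher (Cish, Socs1, Socs3, Pim1, Pim2, Stat3 and Stat5b) and 0 lower, against 56.8% of 11039 genes called in all, 25.7% higher and 31.0% lower. The median log2(FPKM + 1) difference of the 10 genes was 0.18 at 24 h and 0.58 at 48 h, beside -0.01 and -0.06 over all expressed genes. With a minimum of 1.5-fold on that scale added, 2 of the 10 kept a call at 24 h and 5 at 48 h, where 10.2% and 38.0% of all tested genes did. In bulk RNA, a change in the share of cells of a type and a change of RNA per cell cannot be told apart, and these values are relative to all other RNA.

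**Figure D1:**
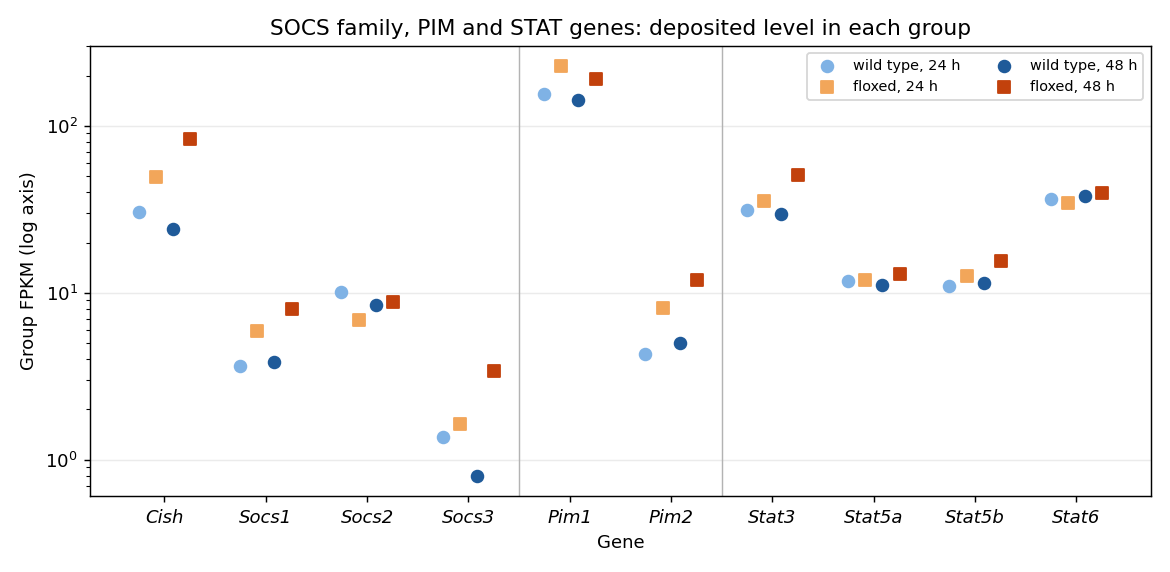
Deposited FPKM of each gene (log axis) in wild type cells (circles) and floxed cells (squares) at 24 h (pale) and 48 h (dark), 1 value per group without error bars. Pim1 is the highest gene in every group, Socs3 the lowest, and the dark square of Cish stands apart from its circles.

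Cish encodes CIS, an SH2 protein that binds activated cytokine receptors. It is found on chromosome 9 from 107296026 to 107302784 on the plus strand (mm10, GENCODE M21, ENSMUSG00000032578.7). Cish stood at 30.5 FPKM in wild type against 49.4 in floxed cells after 24 h and at 24.0 against 83.3 after 48 h. Both floxed values lie above both wild type values. The ratio of floxed to wild type was 1.62 at 24 h and 3.47 at 48 h, with q = 0.000449 and q = 0.000165 in the authors' deposited table. Each of these is the smallest q of its time in the authors' deposited table, held by 1328 and 3684 genes. Cish made the largest difference of the 10 genes at 48 h, 1.75 on the log2(FPKM + 1) scale, which is percentile 96.7 among expressed genes. Its exons overlap 2 antisense-strand annotations in GENCODE M21, a pseudogene and an antisense RNA, neither of them listed in the table, and the sources used here do not say whether strand was used in counting.

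Socs1 and Socs3 encode inhibitors that bind and block JAK kinases directly. Socs1 (chromosome 16, 10782240 to 10785536, minus strand, ENSMUSG00000038037.5) stood at 3.67 in wild type against 5.92 in floxed cells after 24 h and at 3.86 against 8.0 after 48 h. Its wild type level was nearly the same at both times, and the floxed level was higher at both. The ratios were 1.61 and 2.07, with q = 0.00305 and q = 0.000165 in the authors' deposited table. Socs3 (chromosome 11, 117966079 to 117970047, minus strand, ENSMUSG00000053113.3) is the low member of the family here, at 1.38 and 1.64 FPKM at 24 h and 0.802 and 3.38 at 48 h. The first pair had no call (q = 0.375 in the authors' deposited table) and the second had q = 0.000165 there. On the log2(FPKM + 1) scale, which understates changes of low genes, the Socs3 difference was 0.15 at 24 h and 1.28 at 48 h. The latter was 1.95 with a pseudocount of 0.1 and 0.53 with one of 5. The wild type level at 48 h is under 1 FPKM, so its ratio of 4.22 rests on a low value.

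Socs2, a further family member and a known restraint on growth hormone signalling, was the one gene of the 10 called lower at either time. Its position is chromosome 10, 95385362 to 95417180, minus strand (ENSMUSG00000020027.18). Its level was 10.1 FPKM in wild type against 6.83 in floxed cells after 24 h and 8.44 against 8.76 after 48 h. At 24 h it was thus 1.48-fold lower in floxed cells, with q = 0.00185 in the authors' deposited table, at percentile 7.75 of all log2 differences. At 48 h the values nearly coincided, with q = 0.828 in the authors' deposited table. The 4 inhibitor genes summed to 45.6 FPKM in wild type against 63.8 in floxed cells after 24 h and to 37.1 against 103 after 48 h. Cish made up 66.8% and 77.5% of these sums at 24 h and 64.7% and 80.5% at 48 h, so Cish was the larger part of the sum in every group.

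**Figure D2:**
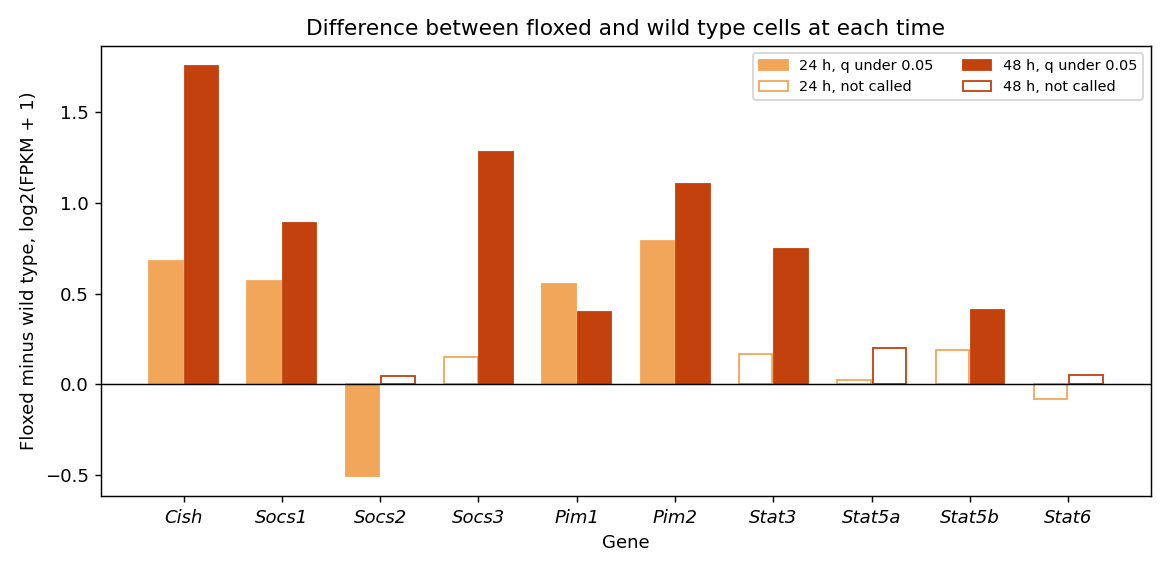
Difference between floxed and wild type cells on the log2(FPKM + 1) scale for each gene at 24 h (pale) and 48 h (dark); filled bars have an authors' q under 0.05 and open bars do not. Cish and Socs3 have the tallest bars at 48 h, 1.75 and 1.28, and Socs2 at 24 h has the one filled bar below 0.

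PIM kinases are serine/threonine kinases that are active without an activating phosphorylation step, so their amount largely sets their activity. Pim1 lies on chromosome 17 from 29490753 to 29496112 on the plus strand (ENSMUSG00000024014.8) and overlaps an antisense RNA that the table does not list. It stood at 154 FPKM in wild type against 227 in floxed cells after 24 h and at 144 against 189.7 after 48 h. Pim1 was the most abundant of the 10 genes in each group, at percentile 93.7 or above of expressed genes. The floxed level was 1.47 times the wild type level at 24 h (q = 0.000831 in the authors' deposited table) and 1.32 times at 48 h (q = 0.0296 there). It is the one gene of the 10 whose floxed minus wild type difference was lower at 48 h than at 24 h, 0.40 against 0.56 on the log2(FPKM + 1) scale, a change that could not be tested.

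Pim2 (chromosome X, 7878262 to 7883432, plus strand, ENSMUSG00000031155.16) is the less abundant kinase. Wild type cells held 4.30 FPKM at 24 h and 5.03 at 48 h, and floxed cells 8.15 and 12.0. Ratios were 1.90 and 2.38, with the smallest q of each time, 0.000449 and 0.000165, in the authors' deposited table. Pim3, the third kinase of the family, was also called higher at both times, at 6.06 and 11.3 FPKM at 24 h and 6.25 and 10.2 at 48 h. The 3 kinases summed to 164 and 246 FPKM at 24 h and 155 and 212 at 48 h, wild type first. Pim1 held between 89.6% and 93.7% of that sum in every group.

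The STAT genes had a median log2(FPKM + 1) difference of 0.10 at 24 h and 0.30 at 48 h, beside 0.36 and 1.09 for the 4 inhibitor genes and 0.67 and 0.75 for Pim1 and Pim2. None of the 4 was called at 24 h, when their differences ran from -0.08 to 0.19. Stat3, the factor that interleukin 6 and granulocyte colony-stimulating factor activate, had 31.4 FPKM in wild type against 35.4 in floxed cells after 24 h and 29.8 against 50.7 after 48 h. Its 48 h ratio was 1.70, with q = 0.000165 in the authors' deposited table. Stat5b stood at 10.9 and 12.6 at 24 h and 11.4 and 15.5 at 48 h, where the ratio was 1.36 and q = 0.0211 in the authors' deposited table. Stat5a, its close paralog, stood at 11.7 and 11.9 at 24 h and 11.2 and 13.0 at 48 h, with no call at either time (q = 0.922 and q = 0.295 in the authors' deposited table). Thus Stat5b passed the threshold at 48 h and Stat5a did not, and the difference between the paralogs was not tested.

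The 3 factors Stat5b, Stat5a and Stat3 lie side by side on chromosome 11. Stat5b spans 100780731 to 100850724 (minus strand, ENSMUSG00000020919.11), Stat5a 100859351 to 100885169 (plus strand, ENSMUSG00000004043.14) and Stat3 100885098 to 100939540 (minus strand, ENSMUSG00000004040.16). In GENCODE M21 the 3′ ends of Stat5a and Stat3 overlap, while the entries of the deposited table do not. Stat5a and Stat5b have near-identical stretches, so how shared reads were split between them is uncertain. Their summed level was 22.6 FPKM in wild type against 24.5 in floxed cells after 24 h and 22.6 against 28.4 after 48 h, ratios of 1.08 and 1.26.

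Stat6, which interleukin 4 activates, had the smallest difference of the 4 factors at 48 h. It lies on chromosome 10 from 127642986 to 127660957 on the plus strand (ENSMUSG00000002147.18) and shares its locus entry with Nab2, whose exons overlap it, so its value is uncertain. Stat6 stood at 36.6 in wild type against 34.5 in floxed cells after 24 h and at 38.2 against 39.6 after 48 h, with q = 0.714 and q = 0.815 in the authors' deposited table. The 4 STAT genes together summed to 90.6 and 94.5 FPKM at 24 h and 90.6 and 119 at 48 h.

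**Figure D3:**
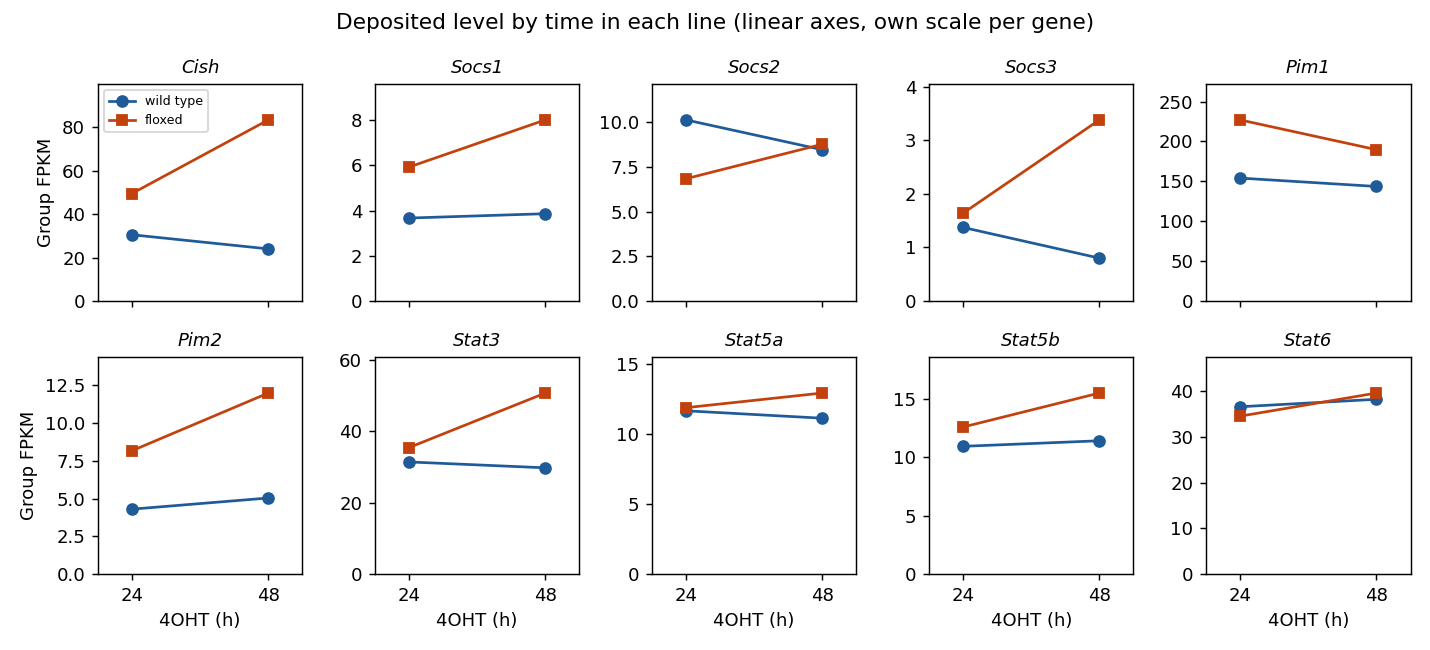
Deposited FPKM at 24 and 48 h in wild type (blue circles) and floxed cells (red squares), 1 panel per gene with a linear axis from 0. The lines of Cish and Socs3 move apart between the times, those of Socs2 meet at 48 h, and Pim1 is lower at 48 h than at 24 h in both.

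From 24 to 48 h the levels in the lines moved apart for 7 of the 10 genes and closer for Socs2, Pim1 and Stat6. In wild type cells the ratio of the 48 h to the 24 h level ran from 0.583 for Socs3 to 1.17 for Pim2. In floxed cells it ran from 0.836 for Pim1 to 2.06 for Socs3, and Cish, Pim2 and Stat3 had 1.68, 1.47 and 1.43. Cish and Socs3 went in opposite directions, to 0.787 and 0.583 times their 24 h level in wild type cells while the floxed levels were higher at 48 h. For 9 of the 10 genes the floxed minus wild type difference was higher at 48 h than at 24 h, by a median of 0.32 on the log2(FPKM + 1) scale over the 10. For Socs3 and Cish the change was 1.13 and 1.07 on this scale, and 0.47 and 0.99 with a pseudocount of 5. Joint scaling of the times is not stated in the sources used here, and 1 value per group leaves no test, so these are sizes without a call.

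The order of levels also differed between groups. In wild type cells at 24 h Pim1 was followed by Stat6, Stat3 and Cish, all between 30.5 and 36.6 FPKM, then by Stat5a, Stat5b and Socs2 between 10.1 and 11.7, and by Pim2, Socs1 and Socs3. In floxed cells at 48 h Cish came directly after Pim1, above Stat3 at 50.7 and Stat6 at 39.6. Stat5b, Stat5a and Pim2 followed between 12.0 and 15.5. Without a spread between duplicates it cannot be said which neighbours in this order differ.

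The 5 expressed genes closest to Cish over the 4 groups, by Euclidean distance between log2(FPKM + 1) values centred on each gene's mean, were Bambi-ps1, Slc27a1, Naaa, Ifi30 and Gpr137b, at distances of 0.058 to 0.10. Ifi30, a lysosomal thiol reductase, stood at 50.6 and 89.3 FPKM at 24 h and 42.3 and 143 at 48 h, wild type first. Naaa, a lysosomal amidase, stood at 19.0 and 31.5, then 14.2 and 54.04. Slc27a1, a fatty acid transporter, stood at 2.94 and 5.36, then 2.09 and 10.2. They were picked for this likeness, so it is a description over 4 values.

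Upstream of the STAT proteins, both beta chain genes of the receptor were called higher in floxed cells. Csf2rb, the beta chain shared by the receptors for interleukin 3, interleukin 5 and GM-CSF, had 45.1 FPKM in wild type against 64.6 in floxed cells after 24 h and 41.1 against 109.9 after 48 h. Csf2rb2, the beta chain particular to interleukin 3 in mice, had 7.22 and 9.91, then 5.48 and 19.6. These 2 chains are near-identical copies, so the split of reads between them is uncertain. The alpha chain gene Il3ra stood at 21.8 and 18.9 at 24 h and 19.96 and 16.96 at 48 h, with no call. Of 23 receptor genes listed, 17 were expressed, of which 3 were higher and 3 lower at 24 h, and 7 higher and 2 lower at 48 h. Those called were 35.3% and 52.9% of the 17, beside 27.6% and 56.8% of all tested genes. The median log2 difference at 48 h was 0.17. Kit, the receptor for stem cell factor, was 3.16-fold lower at 48 h and Ifngr1 1.82-fold lower, while its partner chain Ifngr2 was 1.77-fold higher.

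JAK kinases phosphorylate the receptor and the STAT proteins. Jak2, the kinase that binds the beta chain, stood at 10.1 FPKM in wild type against 11.1 in floxed cells after 24 h and at 9.66 against 15.7 after 48 h, where it was called. Jak1 was called at both times, at 35.2 and 47.1, then 34.7 and 65.2. Jak3 was called at 24 h (8.34 and 12.7) and not at 48 h (8.24 and 10.5), and Tyk2 at neither, with ratios of 1.14 and 1.15. Jak1 and Jak3 share their locus entries with other genes and are uncertain. Of the 4 kinases 2 were higher at each time and 0 lower, with medians of 0.29 and 0.48. That is 50% called at each time, against 27.6% of all tested genes at 24 h and 56.8% at 48 h.

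Of 8 genes for adaptors and other signalling partners of the receptor, 1 was called lower at 24 h, and 2 were called higher at 48 h. These shares, 12.5% and 25%, were below the 27.6% and 56.8% of all tested genes. Shc1, which links receptors to RAS, stood at 50.4 and 52.7 FPKM at 24 h and 49.98 and 130.2 at 48 h, and Lyn, a SRC family kinase that shares its locus entry, was 1.55-fold higher at 48 h. The list's median was 0.03 at 48 h. Gab2, a docking protein, was the one called at 24 h, at 8.67 and 6.37, and was named after its value was seen.

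The STAT, SOCS and PIM genes outside the 10 were called in both directions at 48 h. Stat2, a factor of the interferon response, had no call at either time and stood at 5.95 and 4.67 at 24 h and 5.11 and 6.56 at 48 h. Stat4 was called lower at 48 h, at 2.38 and 1.66. Socs6 was called higher at 48 h, at 13.3 and 22.0, and Socs5 lower, at 2.86 and 2.08. Socs4 stood at 12.3 and 14.1 and Socs7 at 5.95 and 5.31 at 48 h, both without a call. With Pim3, 1 of 5 genes of the list of further SOCS and PIM genes was higher at 24 h, and 2 were higher and 1 lower at 48 h. Calls thus took 20% and 60% of this list, where all tested genes had 27.6% and 56.8%.

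Another 16 listed genes restrain or shape the signal by other routes. At 24 h 2 were higher and 1 lower, and at 48 h 7 were higher and 3 lower. Their median was 0.14 at 48 h. The shares called, 18.8% and 62.5%, stand beside 27.6% and 56.8% of all tested genes. Ptpn6, which encodes the phosphatase SHP-1 that dampens cytokine receptors, had 154 FPKM in wild type against 158 in floxed cells after 24 h and 144 against 297 after 48 h. Cbl, a ubiquitin ligase that directs activated receptors to degradation, was lower at both times, at 23.6 and 10.5, then 24.5 and 8.71. Dok2, an adaptor that restrains RAS signalling, was 2.93- and 2.43-fold higher at 24 and 48 h. Sh2b1, an adaptor that binds Jak2 and can raise its activity, was 1.59- and 2.35-fold higher. Ptpn2 and Ptpn11, which encode the phosphatases TC-PTP and SHP-2, were 1.35- and 1.30-fold lower at 48 h.

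**Figure D4:**
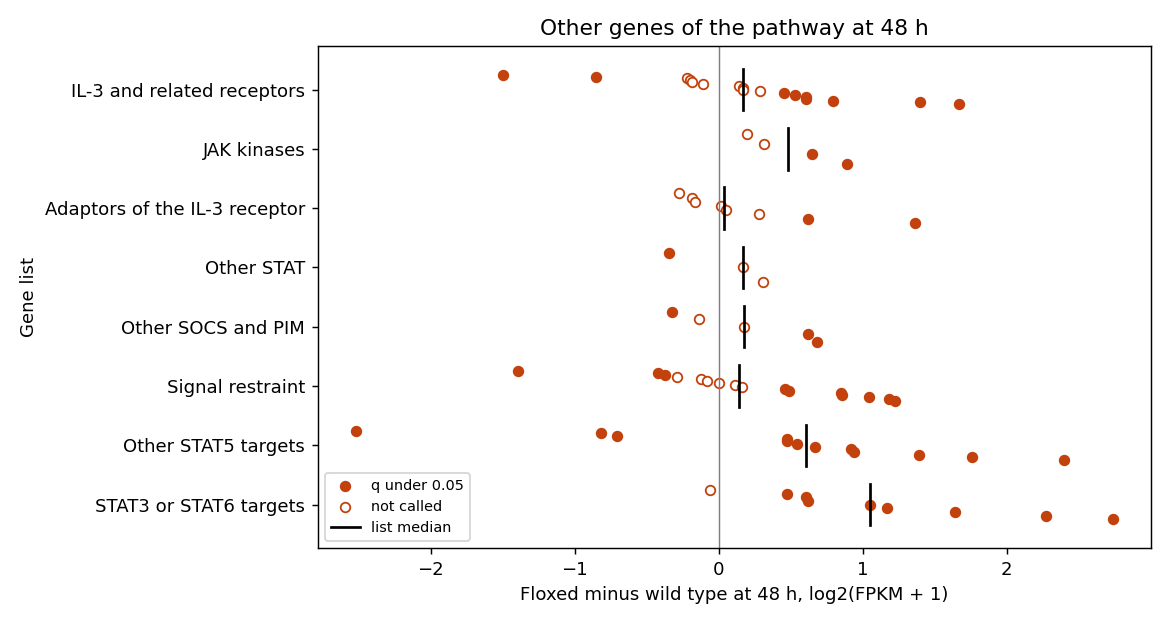
Difference between floxed and wild type cells at 48 h on the log2(FPKM + 1) scale for the expressed genes of 8 pathway lists, 1 point per gene, filled where the authors' q is under 0.05, with a black line at each list's median. The medians of the last 2 lists, 0.61 for other STAT5 targets and 1.05 for STAT3 or STAT6 targets, lie furthest to the right, and other STAT5 targets also hold the lowest point, Ccnd2.

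Other genes described as STAT5 targets went both ways. Of 13 listed, 12 were expressed, and 4 were higher and 2 lower at 24 h, 9 higher and 3 lower at 48 h. Calls took 54.5% of 11 tested at 24 h and 100% of 12 at 48 h, beside 27.6% and 56.8% of all tested genes. Bcl6 and Ccnd1 (1.19 FPKM) passed the filter of 1 FPKM only through floxed cells at 48 h, where they count as higher. Bcl2 passed it only through wild type cells. The 48 h share therefore leans on the filter. Ccnd3, a D-type cyclin, had 102 FPKM in wild type against 348 in floxed cells after 48 h, while Ccnd2, the D-type cyclin most often tied to STAT5, had 9.30 and 0.794. Both share their locus entries with other genes and are uncertain. Id1, an inhibitor of basic helix-loop-helix factors, was 1.82- and 2.65-fold higher at the 2 times. Bcl6, a repressor whose transcription STAT5 is known to lower, stood at 0.178 and 5.21 at 48 h, and was called higher there. STAT5 activity was not measured, and its part in these differences was not tested. Myc was 1.77-fold lower at 48 h, and the survival gene Bcl2 stood at 1.18 and 0.336. The survival genes Bcl2l1 and Mcl1 went the other way, at 13.9 and 27.2 and at 74.4 and 144 at 48 h, both called; they were named after their values were seen.

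Genes described as STAT3 or STAT6 targets were mostly called higher at 48 h. Of 11 listed, 9 were expressed, with 4 higher and 1 lower at 24 h and 8 higher and 0 lower at 48 h. The other 2, Arg1 and Retnla, were under 1 FPKM in every group. That is 55.6% and 88.9% of the 9 called. The AP-1 genes Fos and Junb, which many other signals also induce, stood at 1.41 and 15.1 and at 20.7 and 104 at 48 h. Chil3 (Chi3l3 in the table), a chitinase-like protein of macrophages, stood at 160.04 and 149 at 24 h and at 121 and 380.5 at 48 h. Over all 8 lists, counting each gene once, 73 of 82 genes were expressed; 16 were higher and 8 lower at 24 h, which is 33.3% of 72 tested, and 36 were higher and 10 lower at 48 h, 63.0% of 73. The matching shares over all genes were 27.6% and 56.8%. The 48 h count includes Bcl6 and Ccnd1, which passed the filter only through floxed cells at that time. By direction, 13.4% of all tested genes were higher and 14.2% lower at 24 h, and 25.7% higher and 31.0% lower at 48 h.

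Cell identity and the targeted gene were checked in the same table. Cdc73 stood at 26.2 FPKM in wild type against 5.96 in floxed cells after 24 h and at 26.9 against 5.45 after 48 h. All 8 blood and leukaemia markers, among them Ptprc, Mpo, Hoxa9 and Meis1, were expressed, and all 4 B lymphocyte, 4 T lymphocyte and 4 erythroid markers were under 1 FPKM in every group, with Pax5, Cd3e and Hbb-b1 among those at 0. Markers of mature myeloid cells were mostly called higher at 48 h, which did not hold for the neutrophil and monocyte lists at 24 h. Beside the marker counts that follow stand the shares over all tested genes. These were 13.4% higher and 14.2% lower at 24 h, and 25.7% higher and 31.0% lower at 48 h. The 5 neutrophil markers found summed to 6340 FPKM in wild type against 6781 in floxed cells after 24 h and to 4730 against 18169 after 48 h. Of these, 1 was higher and 1 lower at 24 h, and 5 of 5 were higher at 48 h. S100a8 alone held 4134 and 16678.5 FPKM at 48 h. The 7 monocyte and macrophage markers summed to 3205 and 3188 and then 2574 and 6453. Of them, 0 were higher and 2 lower at 24 h, and 6 higher and 1 lower at 48 h. Lyz2 (587 and 3333 FPKM at 48 h) and Ly6c2 (1859 and 2860) held most of these sums. Ccr2 was called lower at both times, at 81.2 and 25.9 and then 52.1 and 33.6. The 6 eosinophil markers summed to 5.49 and 179 and then 4.91 and 221, with 4 higher at 24 h and 3 at 48 h. However, Siglecf (Siglec5 in the table) had no call, and Il5ra, the defining receptor, was under 1 FPKM throughout. Of 3 megakaryocyte markers, Pf4 stood at 0.977 and 10.8 and Itga2b at 0.024 and 1.07 at 48 h, both called higher, and Gp9 was under 1 FPKM throughout. Itga2b reached 1 FPKM only in that floxed group. Of 4 mast cell and basophil markers, Mcpt8 was called higher at both times, at 3.16 and 8.77 and then 3.52 and 5.92, and the other 3 were under 1 FPKM. Of 4 stromal and endothelial markers, Pecam1 was called lower at both times, at 6.91 and 3.23 and then 6.41 and 2.35, and the other 3 were under 1 FPKM. The part of these cell types in the differences of Cish, Socs3, Pim2 and Stat3 was not tested.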

How the data were processed

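The series holds 8 poly(A) RNA libraries in 4 groups, grouped by their titles. The submitters' processing notes name mm10, Bowtie2, Cuffdiff and Cufflinks 2.1; the sources used here do not give their roles, the counting annotation or strand use. The authors' deposited table gives FPKM per gene with the duplicates of each group combined, and the authors' deposited q-value of the genotype comparison at each time, both per the file headers. Since 1 value per group allows no model, a gene was called by the authors' q under 0.05, and the direction came from FPKM. The deposited fold columns were not used.

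Genes with at least 1 FPKM in a group were kept as expressed, leaving out 27 whose names had become date numbers, and those with q under 1 counted as tested. Differences are log2(FPKM + 1), floxed minus wild type. Coordinates are 1-based, from GENCODE M21 on the mm10 assembly; promoters are RefSeq's. List genes absent by symbol were matched through RefSeq synonyms (4 matched, Ly6g did not). All 10 members were named, with up to 3 genes per direction and list at 48 h, and the other JAK, STAT, SOCS and PIM genes, apart from a result that is not reported here. Members and lists were chosen with earlier results of these data known. Genes that share a locus entry are called uncertain.

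Depth per library is not given. The most common floxed to wild type ratio among genes under 0.05 FPKM in both was 0.834 at 24 h (68 of 1274 genes within 0.002) and 1.07 at 48 h (41 of 995), which is the relative worth of 1 fragment if such genes hold single fragments, an assumption not tested. No interval or detection limit was computed. Alternatives were a q of 0.01, a 1.5-fold minimum, other filters and pseudocounts, and 3 rescalings. The rescalings were also run on simulated data in which few genes changed, and only in floxed cells at 48 h. Many more genes were called in the real data, so that run cannot show how well the rescalings suit them. Python 3.11.15, numpy 2.4.6 and pandas 2.3.3 were used.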

Additional observations from a re-analysis of the deposited data

How the results depend on the processing

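No paired analysis was possible because the table holds 1 value per group, and for the same reason no library could be left out. Of 100 values of single genes under another pseudocount or scaling, 98 kept their direction. The exceptions, neither of them called, were Socs2 (-0.041) and Stat6 (-0.046) at 48 h with groups rescaled to the same FPKM sum. With a 1.5-fold minimum on the log2(FPKM + 1) scale, 2 of the 10 genes were called at 24 h (Cish and Pim2). So were 10 of 72 tested pathway genes, beside 10.2% of all tested genes. With 1.5-fold as a ratio of FPKM, chosen after seeing the data, 3 of the 10 members were called at 24 h (Socs1 too). At q under 0.01, Pim1 (0.40) and Stat5b (0.41) lost their call at 48 h. With genes of at least 5 FPKM Socs3 was no longer among those counted, which left 6 calls at 48 h. For the FPKM ratio, the q of 0.01 and the 5 FPKM filter, the share over all genes was not computed. Socs3 differed by 1.95 at 48 h when 0.1 was added to FPKM and by 0.53 when 5 was. The median over the 10 genes at 24 h, at 48 h and of the change between times was 0.22, 0.60 and 0.34 with a pseudocount of 0.1; 0.15, 0.46 and 0.24 when 5 was added instead; and 0.20, 0.49 and 0.22 with equal sums. It was 0.19, 0.63 and 0.39 under quantile normalization, and 0.65 at 48 h and 0.38 for the change with TMM factors. The cause of these shifts was not tested. No scaling moved the median of all genes by more than 0.09.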

Other observations

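By their deposited entries the 6 SOCS and PIM genes are short and the 4 STAT genes are long, which the choice of members did not use. For Socs2 this depends on the source. Its deposited entry runs from 95411490 to 95416857, its GENCODE M21 gene from 95385362 to 95417180. In the deposited table Socs1, Socs2, Socs3, Cish, Pim1 and Pim2 span 1728 to 5368 bases, and the STAT genes 23718 to 69855 bases. The 23718 bases are the entry that Stat6 shares with Nab2. That entry ends at 127666703, past the GENCODE M21 end of Stat6 at 127660957. Among 1096 expressed genes with a locus entry of their own and a span in the shorter range, calls of higher levels in floxed cells took 20.6% and calls of lower levels 14.7% of those tested after 24 h, and 38.0% and 23.8% after 48 h. Among 2646 genes in the longer range the shares were 12.7% and 14.1% at 24 h and 23.5% and 36.6% at 48 h. The median log2(FPKM + 1) difference at 48 h was 0.13 for the shorter and -0.13 for the longer genes. All 8906 such genes had a median of -0.07. These ranges were set by the members after their values were seen, genes are not replicates, and no test of span was made.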
